A study of Saccharomyces cerevisiae with 14 samples.

Results

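The genes examined here are 30 genes of ergosterol synthesis and sterol ester formation, taken by locus tag from a table of 6470 counted features. All 30 passed the filter on low counts, which left 6097 features in the test. They were ordered by role into 9 genes of the mevalonate arm, 3 genes from squalene to lanosterol, 12 genes from lanosterol to ergosterol, 2 electron donors, 2 sterol ester synthases and 2 transcription regulators. The series measured RNA in cultures of budding yeast, Saccharomyces cerevisiae, grown with or without the biguanide metformin and collected in mid exponential or late stationary phase. There were 3 stationary libraries with 50 mM metformin, 3 stationary libraries without it, 4 exponential libraries with 50 mM metformin and 4 exponential libraries without it.

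All 4 groups were the same haploid MATa strain, called WT in the labels. Its markers include the his3D::kanMX4 and lyp1D deletions, the alleles his3D1 and ura3D0, and LEU2. It also carries the cassette PDC1-RFP-CaURA3MX4, a tag on a pyruvate decarboxylase gene, and can1D::STE2pr-SpHIS5, in which the STE2 promoter, active in MATa cells, drives a fission yeast HIS5 gene. The controls share all of these alleles. The medium was synthetic complete at pH 4. One strain was used. Starter cultures came from individual colonies, but the labels do not tie each library to a culture of its own, and the spread behind the p-values may therefore be partly technical. All 14 libraries carry the same batch label.

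Ergosterol is the main sterol of fungal membranes. Its synthesis starts from acetyl-CoA in the mevalonate arm, which also feeds farnesyl and other isoprenoid products, and goes on through squalene and lanosterol. Several of the later steps use molecular oxygen and heme or iron. Surplus sterol is esterified with fatty acids and stored in lipid droplets, and the zinc cluster factors Upc2 and Ecm22 bind sterol response elements in front of many of these genes.

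The sterol response element was searched on both strands as TCGTATA and TCGTTTA in the R64 reference sequence, since these elements are the known link between the regulators and the other genes. In the 300 bases around each start codon (250 before, 50 after), 15 of the 30 genes (50.0%) held either form, against 9.31% of 6013 protein-coding genes. In the 600 bases before the start codon, a window added after the shorter one had been searched, 26 of the 30 genes (86.7%) held a match, against 17.4% of 6011 genes. This window can reach into neighbouring genes. The 26 genes held 42 matches, 30 of TCGTTTA and 12 of TCGTATA, which did not overlap each other. The 4 genes with no match in this window were HMG2, ERG12, IDI1 and ARE2. The core of Rox1 sites, ATTGTTC, was in the shorter window of 8 of the 30 genes (26.7%), against 7.65% of all, and in the ERG26 window it shared 1 base with an element. The Hap1 motif (CGG, 3 of any base, TA, any base, CGG) was in the shorter window of 0 of the 30 genes and of 8 of the 6013. A match is a run of letters and not a measured binding site.

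The elements below are a selection. They belong to genes with large phase differences and to the 2 genes that rose under TMM scaling (described below). The nearer element of ECM22, a gene not called under TMM, is also shown. Elements of ERG5 and ERG25, with log2 fold changes of -3.05 and -3.00, are not shown, nor is the farther ECM22 element. Each line gives the gene strand from 5′ to 3′ with its R64 coordinates, and capitals mark the element, which reads TAAACGA where it lies on the opposite strand.
ERG6 element, chrXIII:253408-253430, minus strand: cccgatctTCGTATAtggtacct
ERG6 element, chrXIII:253363-253385, minus strand: ttttggcgTCGTTTActgccgtt
ERG4 element, chrVII:472620-472642, plus strand: gtttcttcTCGTTTAataactaa
ERG4 element, chrVII:472632-472654, plus strand: ttaataacTAAACGAgactcatt
MVD1 element, chrXIV:701787-701809, plus strand: gaaatggcTCGTTTAgccttttc
ERG26 element, chrVII:496652-496674, minus strand: cctatagaTCGTTTAttgttctc
ERG26 element, chrVII:496624-496646, minus strand: aaatggtaTCGTTTAaaaatctc
ERG2 element, chrXIII:667344-667366, plus strand: cacggcccTCGTATAagccgcaa
ERG10 element, chrXVI:497851-497873, plus strand: ggtgcctgTCGTTTAccgcccaa
ARE1 element, chrIII:211767-211789, plus strand: ggttggacTCGTTTAgcgaacaa
UPC2 element, chrIV:889158-889180, plus strand: tttgttcgTAAACGAgcaggaac
UPC2 element, chrIV:889384-889406, plus strand: tttttctcTAAACGAgcgcacct
ECM22 element, chrXII:602481-602503, minus strand: tttatattTCGTTTAtccataga
Measured to the first base of the start codon, the ERG4 elements began 227 and 215 bases upstream and the ERG6 elements 432 and 387 bases upstream. The ARE1 element began 154 bases upstream, and the nearer ECM22 element 32 bases upstream. Genes that fell and genes that rose in stationary phase under TMM thus both carried the element. Under plain library totals 0 of the 30 genes were called higher.

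The libraries held 43897221 to 59443572 gene counts, and a sterol gene had between 128 counts (ERG29 in a stationary library with metformin) and 29206 counts (ERG11 in an exponential library without metformin). Levels are CPM, counts scaled to library size, with TMM factors, which assumes that most features do not differ between libraries. The 6 MATa markers MFA1, MFA2, STE2, STE6, BAR1 and AGA2 were counted in every library and summed to 172 to 217 CPM in stationary cultures with metformin, 133 to 173 CPM in stationary cultures without it, 1005 to 1210 CPM in exponential cultures with metformin and 1181 to 1330 CPM in exponential cultures without it. The 4 markers of the other mating type summed to 38.0 to 47.0 CPM in stationary and 16.6 to 19.9 CPM in exponential libraries. The 5 stationary phase markers summed to 10276 to 16761 CPM in stationary and 110 to 408 CPM in exponential libraries.

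The make-up of the RNA differed strongly between phases. Protein-coding genes held 30.6% ± 2.73 of gene counts in stationary libraries (SD, n = 3) and 85.3% ± 1.30 in exponential libraries (SD, n = 4) without metformin, while SCR1, the RNA of the signal recognition particle, held 32.5% ± 1.66 in stationary and 6.75% ± 0.526 in exponential libraries. The median log2 fold change of all features, stationary over exponential, was 0.02 with TMM, -1.02 with plain library totals and 0.45 with the summed protein-coding counts as library size. Directions across phases are therefore given relative to the scaling named. In bulk RNA, fewer cells with a transcript and less of it per cell cannot be told apart.

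**Figure D1:**
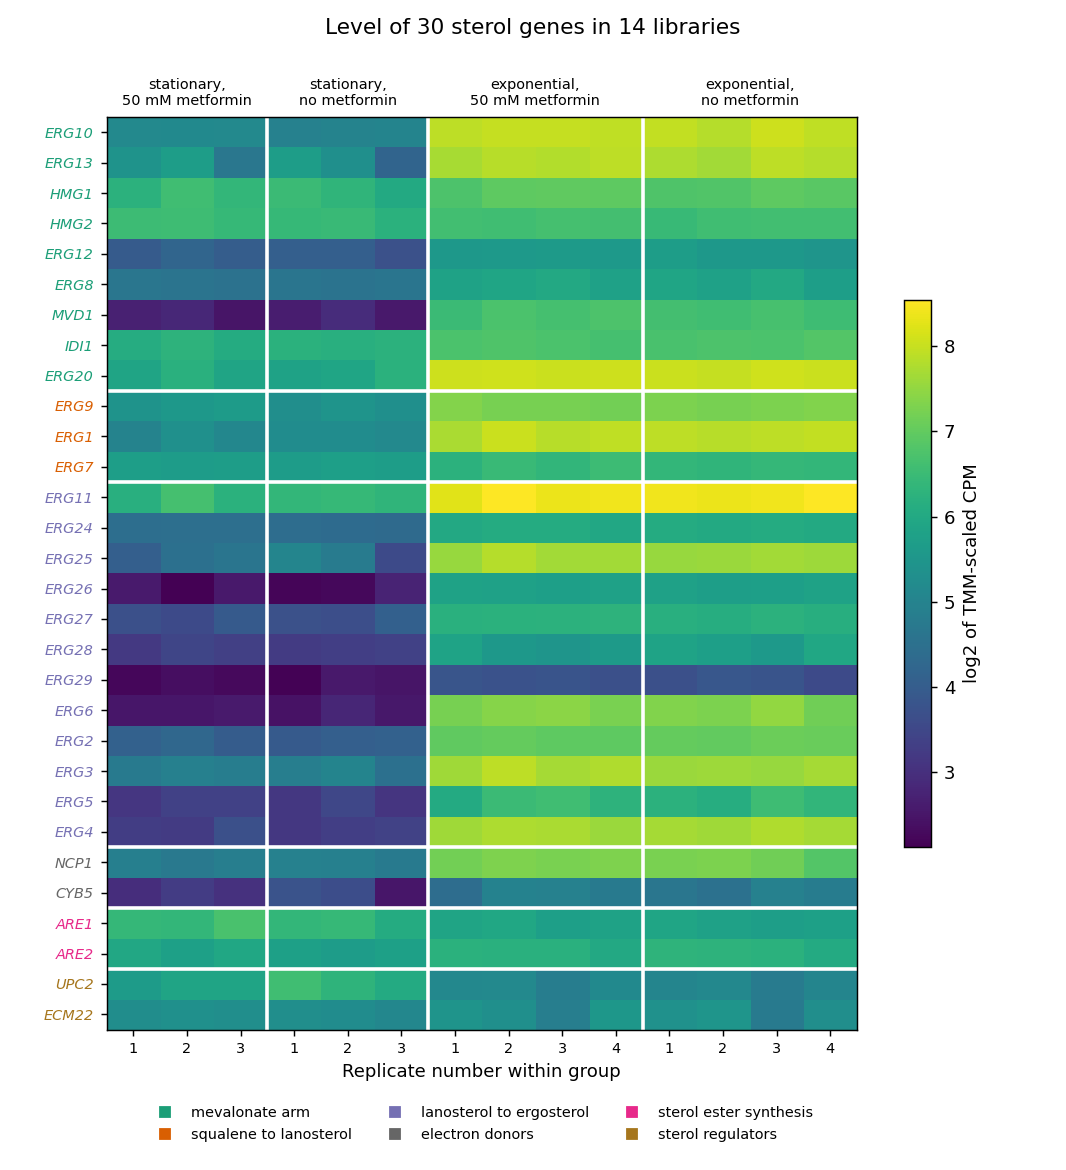
Level of each of the 30 genes (rows, by role) in each of the 14 libraries (columns, by group), as log2 of TMM-scaled CPM. Most rows of the mevalonate, lanosterol and ergosterol steps are darker in the 6 stationary libraries, while ARE1 and UPC2 are brighter there, and the libraries with and without metformin look alike within a phase.

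Transcripts of nearly the whole sterol pathway were lower in stationary than in exponential cultures without metformin. Of the 30 genes, 27 fell and 2 rose at an adjusted p under 0.05 (edgeR quasi-likelihood test over all features), and ECM22 was not called. Among all features tested, 42.2% were called lower and 42.4% higher. Most features were thus called different under TMM itself, so its assumption that most do not differ was not met across phases. The median log2 fold change of the 30 genes was -2.05, and values ran between -4.71 for ERG6 and 1.32 for UPC2. Under plain totals 29 fell and 0 rose, against 65.9% of features lower and 17.5% higher. Under protein-coding totals 23 fell and 4 rose, against 30.9% lower and 53% higher. The groups did not overlap for 28 of the 30 genes, 26 lower and 2 higher, against 41.9% of features lower and 41.8% higher. At an unadjusted p under 0.05, 29 of 30 passed, against 85.2% of features. Under TMM, 28 of the 30 genes lay below the median of all features. The other scalings gave the same count, since a change of scaling shifts all features nearly alike.

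As a share of all gene counts, the 30 genes held 0.0832%, 0.0675% and 0.0660% in the stationary libraries and 0.495%, 0.498%, 0.543% and 0.508% in the exponential libraries without metformin. As a share of protein-coding counts they held 0.236% ± 0.0179 in stationary cultures (SD, n = 3) and 0.599% ± 0.0168 in exponential cultures (SD, n = 4). These shares use the library sizes of plain totals and of protein-coding totals, so they repeat those scalings. The groups did not overlap on either base.

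The first enzymes of the mevalonate arm condense acetyl-CoA units, and HMG-CoA reductase then makes mevalonate, the controlled step of the pathway. All 9 genes of this arm fell under TMM, with a median log2 fold change of -1.61, and under protein-coding totals 6 fell and 1, HMG2, rose. ERG10, the acetoacetyl-CoA thiolase, had 30.8, 31.7 and 32.3 CPM in the stationary libraries, against 248, 229, 267 and 244 CPM in the exponential libraries. Its stationary values were close together and far below the lowest exponential library (log2 fold change -2.97 ± 0.08 SE, adjusted p = 5.16e-13, edgeR). ERG13, the HMG-CoA synthase, had 52.4, 40.3 and 18.4 CPM in stationary and 217, 202, 239 and 226 CPM in exponential libraries, a fall of 2.58 on the log2 scale (SE 0.30). The third stationary library was the low one, and this gene had the widest 95% interval of the 30, -3.22 to -1.94.

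The falls of both HMG-CoA reductase genes were small. HMG1 had 89.8, 80.5 and 65.0 CPM in stationary and 109, 111, 123 and 119 CPM in exponential libraries, a fall of 0.56 on the log2 scale (SE 0.11, adjusted p = 3.36e-04, edgeR) that was not called under protein-coding totals (log2 fold change -0.12). HMG2 had 86.3, 88.8 and 75.0 CPM in stationary and 87.8, 95.8, 97.7 and 97.5 CPM in exponential libraries. Its groups overlapped, and its log2 fold change of -0.18 ± 0.07 SE passed the threshold narrowly (adjusted p = 0.0316, edgeR). The HMG2 call was lost with the replicate block (adjusted p = 0.0640, edgeR) and without the third stationary library (adjusted p = 0.146, log2 fold change -0.12), and under protein-coding totals HMG2 was called as a rise (0.25). Leaving out exponential replicate 3 with metformin, or exponential replicate 2, 3 or 4 without it, also ended the call (adjusted p between 0.0506 and 0.0736, edgeR), as did fitting the compared groups alone (adjusted p = 0.0802, edgeR).

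MVD1 (YNR043W, chromosome XIV, 701895 to 703085, plus strand), the mevalonate pyrophosphate decarboxylase, had the largest fall of the arm. It had 6.21, 7.62 and 5.91 CPM in stationary libraries, against 98.9, 96.0, 101 and 93.5 CPM in exponential libraries. That is a log2 fold change of -3.89 (95% interval -4.14 to -3.64). The kinases on either side of mevalonate phosphate fell less, ERG12 by 1.61 and ERG8 by 1.25 on the log2 scale. IDI1, the isopentenyl diphosphate isomerase that acts directly after Mvd1, had 75.0, 72.7 and 76.3 CPM in stationary and 104, 108, 106 and 113 CPM in exponential libraries. Its fall of 0.53 on the log2 scale (SE 0.07) was not called under protein-coding totals (log2 fold change -0.09). ERG20, the farnesyl pyrophosphate synthase at the branch point to dolichol, heme A and ubiquinone, fell by 2.03 on the log2 scale (SE 0.11). The steps of this arm thus spanned most of the range seen in the whole set.

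All 3 genes from farnesyl pyrophosphate to lanosterol fell. ERG9, the squalene synthase, had 39.3, 43.9 and 40.2 CPM in stationary libraries, against 156, 150, 155 and 160 CPM in exponential libraries (log2 fold change -1.92 ± 0.08 SE). ERG1, the oxygen-using squalene epoxidase, had 37.9, 38.1 and 35.6 CPM in stationary and 239, 230, 239 and 248 CPM in exponential libraries (log2 fold change -2.68 ± 0.10 SE). ERG7, the lanosterol synthase, had 51.1, 53.5 and 51.9 CPM in stationary and 82.3, 80.1, 83.9 and 83.3 CPM in exponential libraries. Its log2 fold change of -0.66 (95% interval -0.81 to -0.51) was the smallest of these 3, and its libraries lay close together within each phase.

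All 12 genes from lanosterol to ergosterol fell, with a median log2 fold change of -2.90. ERG6 (YML008C, chromosome XIII, 251839 to 252990, minus strand, a single coding exon), the sterol methyltransferase that adds the methyl group typical of fungal sterols, had 5.39, 7.09 and 5.85 CPM in stationary libraries. In exponential libraries it had 162, 155, 182 and 142 CPM. The 2 phases were separated by 26.2-fold (log2 fold change -4.71, 95% interval -4.98 to -4.44). ERG4 (YGL012W, chromosome VII, 472855 to 474276, plus strand), the last reductase of the pathway, had 9.05, 9.95 and 10.4 CPM in stationary and 205, 200, 220 and 205 CPM in exponential libraries, a fall of 4.40 on the log2 scale (SE 0.12). ERG26, a dehydrogenase of the demethylation complex, had 4.62, 4.79 and 6.84 CPM in stationary and 56.0, 52.9, 54.0 and 56.4 CPM in exponential libraries, a fall of 3.34 on the log2 scale. These low stationary levels rested on 154 to 222 counts a library for ERG26 and 190 to 228 for ERG6.

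The other genes of this stretch fell by 1.33 (ERG29, a protein linked to the methyl oxidase step) to 3.05 (ERG5, a cytochrome P450 desaturase) on the log2 scale. ERG11, the cytochrome P450 demethylase that azole antifungals block, had 82.5, 86.2 and 80.4 CPM in stationary and 338, 327, 342 and 373 CPM in exponential libraries. Its fall of 2.06 on the log2 scale was smaller than the median of the 12. ERG25, the methyl oxidase, had 33.0, 27.8 and 11.9 CPM in stationary and 187, 191, 202 and 195 CPM in exponential libraries. The third stationary library was again the low one. ERG3, the desaturase that also shapes the response to azoles, fell by 2.79, and ERG2, the sterol isomerase, by 3.01. The reductases ERG24 and ERG27 fell by 1.68 and 2.34, and ERG28, the scaffold of the demethylation complex, by 2.47. The 5 oxygen-using enzymes ERG1, ERG11, ERG25, ERG3 and ERG5 all fell, with a median of -2.79, so they stood within the range of their neighbours.

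The electron donors of these reactions fell too. NCP1, the cytochrome P450 reductase, had 30.6, 30.3 and 27.0 CPM in stationary and 152, 156, 143 and 113 CPM in exponential libraries (log2 fold change -2.27 ± 0.11 SE). CYB5, cytochrome b5, had 13.7, 12.4 and 5.70 CPM in stationary and 24.9, 22.96, 30.7 and 28.4 CPM in exponential libraries (log2 fold change -1.33 ± 0.24 SE). Its stationary libraries differed from each other by more than those of NCP1.

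**Figure D2:**
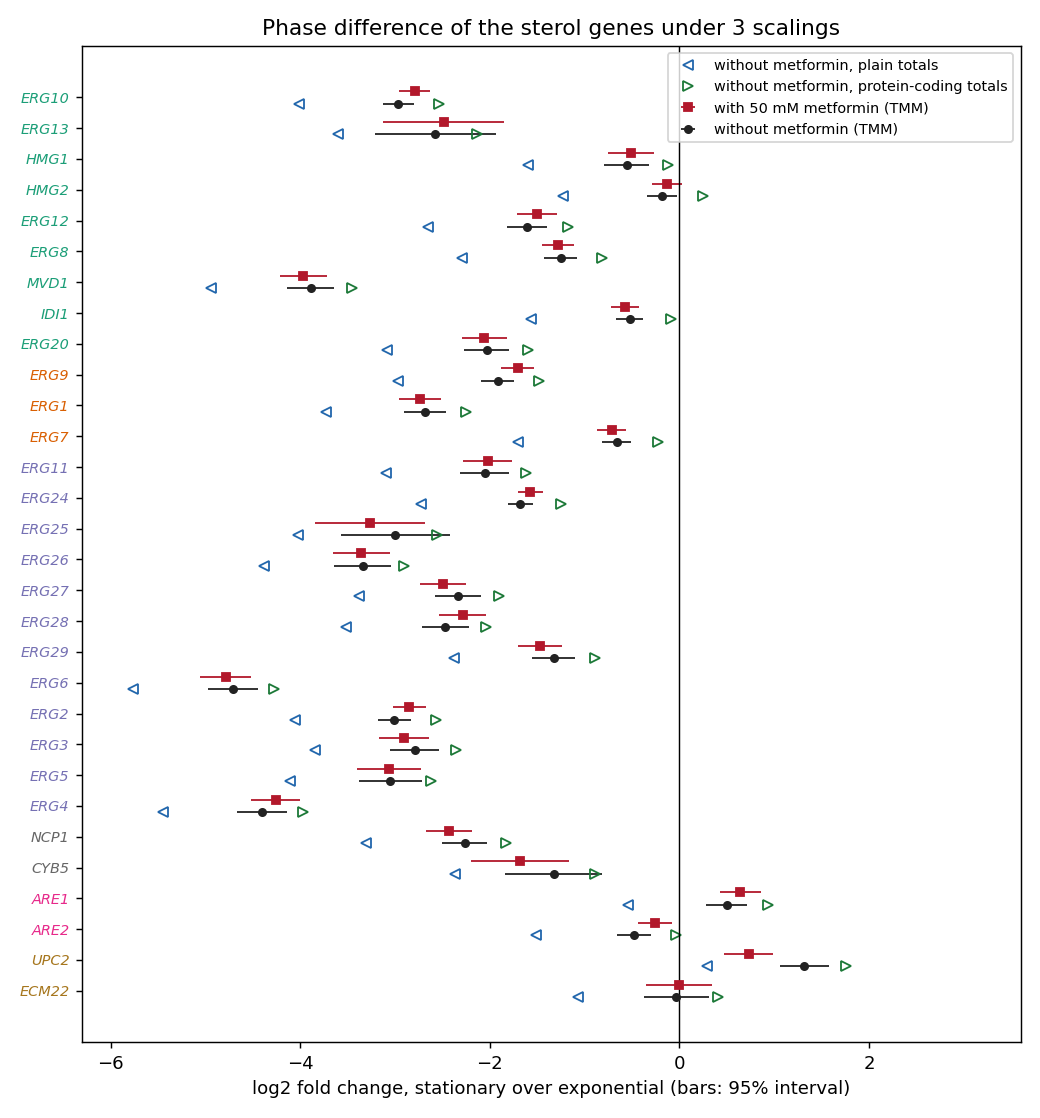
Log2 fold change of each gene, stationary over exponential, with 95% intervals for cultures with (squares) and without metformin (circles) under TMM; open triangles give the value without metformin under plain library totals (left-pointing) and protein-coding totals (right-pointing). ERG6 lies at -4.71 and UPC2 at 1.32 without metformin under TMM, and another scaling shifts the genes together.

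ARE1 and UPC2 were the 2 genes that rose under TMM. ARE1 (YCR048W, chromosome III, 211929 to 213761, plus strand), an acyl-CoA sterol acyltransferase, had 82.8, 85.6 and 66.99 CPM in stationary libraries, against 59.4, 55.7, 52.7 and 54.2 CPM in exponential libraries. The groups did not overlap, and the log2 fold change was 0.50 ± 0.10 SE (adjusted p = 3.32e-04, edgeR). Under plain totals it was -0.54, and ARE1 was called lower. ARE1 overlaps YCR050C on the opposite strand over 298 bases, and whether counting used the strand is not given in the sources used here. YCR050C itself had 0 to 17 counts per library. ARE2, the other acyltransferase and the main one in aerobic cells, had 54.5, 51.2 and 54.9 CPM in stationary and 78.8, 77.7, 74.5 and 66.7 CPM in exponential libraries, a fall of 0.47 on the log2 scale that was not called under protein-coding totals (-0.04).

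UPC2 (YDR213W, chromosome IV, 889751 to 892492, plus strand), a sterol-sensing activator of the pathway, had 95.2, 78.7 and 66.6 CPM in stationary libraries, against 33.3, 34.6, 27.8 and 32.9 CPM in exponential libraries. The log2 fold change of 1.32 (95% interval 1.06 to 1.58, adjusted p = 1.13e-07, edgeR) was the highest of the 30, and under plain totals it was 0.29 and not called. ECM22, its paralog, had 39.0, 38.2 and 34.5 CPM in stationary and 41.7, 44.2, 27.5 and 39.0 CPM in exponential libraries. These groups overlapped, and under TMM the log2 fold change was -0.03 ± 0.16 SE and not called. Under protein-coding totals ECM22 was called higher, as was UPC2, and under plain totals ECM22 was called lower.

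Ratios between related genes within a library do not depend on scaling. Per kilobase of coding sequence, UPC2 over ECM22 was 1.72 to 2.17 in stationary libraries and 0.699 to 0.903 in exponential libraries without metformin. ARE1 over ARE2 was 1.28 to 1.76 in stationary and 0.744 to 0.855 in exponential libraries. HMG1 over HMG2 was 0.859 to 1.03 in stationary and 1.15 to 1.25 in exponential libraries. In all 3 pairs the ranges of the phases did not overlap. Of single features under TMM, 41.8% were higher and 41.9% lower in stationary cultures with no overlap. Other pairs of genes were not examined. These ratios were computed without a test, for 3 pairs.

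**Figure D3:**
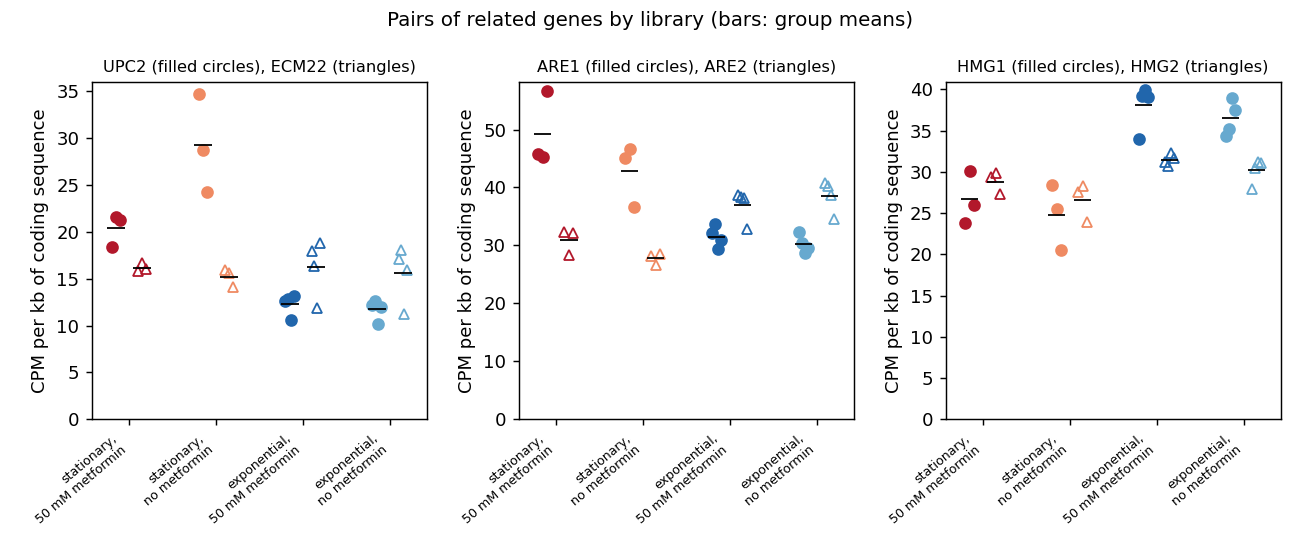
Level per kilobase of coding sequence (TMM-scaled CPM per kb) of 3 pairs of related genes in each library, with group means as short lines. UPC2 lies above ECM22 in the 6 stationary libraries and below it in the 8 exponential libraries, and in stationary cultures the UPC2 points with metformin lie below those without.

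The relative weight of the steps also differed. Genes from lanosterol to ergosterol took 21.8% ± 0.624 of the counts of the 30 genes in stationary cultures (SD, n = 3), against 42.9% ± 0.469 in exponential cultures (SD, n = 4) without metformin. The mevalonate arm took 38.9% ± 0.450 in stationary and 34.0% ± 0.571 in exponential cultures. Sterol ester synthesis took 12.4% ± 0.0931 and the regulators 11.0% ± 0.919 in stationary cultures, against 3.54% ± 0.248 and 1.92% ± 0.321 in exponential cultures. The share of the genes from squalene to lanosterol, 12.3% ± 0.747 in stationary and 13.0% ± 0.288 in exponential cultures, overlapped between phases.

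**Figure D4:**
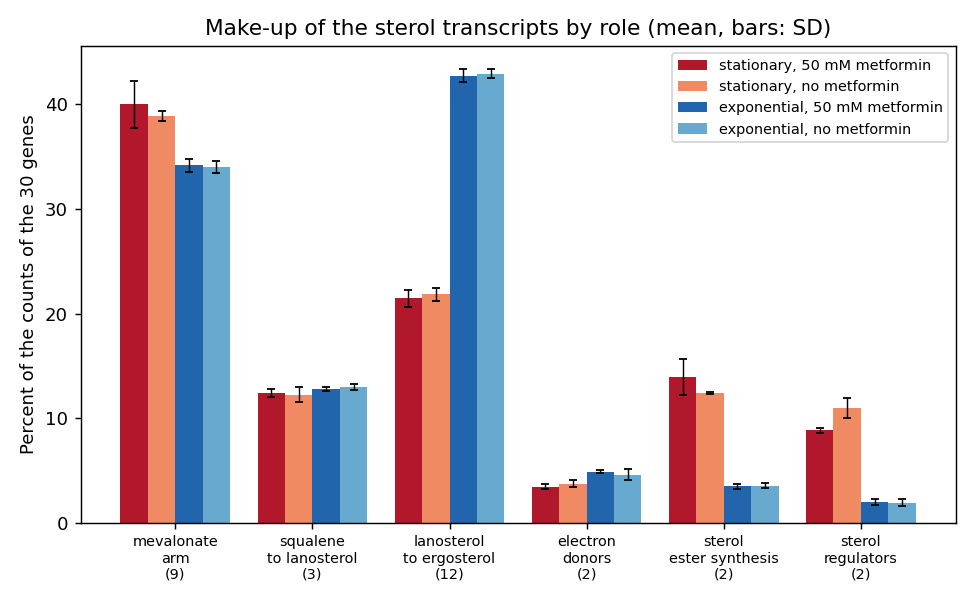
Share of the summed counts of the 30 genes taken by each role (number of genes in brackets), as the mean of each group with SD bars, n = 3 in each stationary and n = 4 in each exponential group. Genes from lanosterol to ergosterol hold 21.8% in stationary and 42.9% in exponential cultures without metformin, and the regulators hold 8.82% with and 11.0% without metformin in stationary cultures.

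Per kilobase of coding sequence, the order of the genes shifted with phase. In stationary cultures without metformin IDI1 was highest at 86.1 ± 2.13 CPM per kb (SD, n = 3), followed by ERG20 at 60.0 ± 9.18, ERG11 at 52.1 ± 1.85 and ARE1 at 42.8 ± 5.47, and ERG26 was lowest at 5.16 ± 1.17. In exponential cultures ERG20 was highest at 246 ± 6.28 CPM per kb (SD, n = 4), followed by ERG11 at 217 ± 12.4 and ERG25 at 208 ± 7.04, and UPC2 was lowest at 11.7 ± 1.09. UPC2 ranked 7 in stationary and 30 in exponential cultures, ARE1 ranked 4 and 26, and ERG6 ranked 29 and 10. Of the 29 pairs of neighbours in the order, 7 in stationary and 7 in exponential cultures had ranges over libraries that did not overlap, so most neighbours did not differ beyond their spread. The highest mean exceeded the lowest by 16.7-fold in stationary and 20.9-fold in exponential cultures.

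The 4 genes with no sterol response element in the 600 bases upstream had log2 fold changes of -0.18 (HMG2), -0.47 (ARE2), -0.53 (IDI1) and -1.61 (ERG12), with a median of -0.50. The 26 genes with an element had a median of -2.30 and ran between -4.71 and 1.32. ERG7, with a pair of elements, lay at -0.66, and ECM22, also with a pair, at -0.03, so single genes with an element overlapped the range of those without. This split was made after the values were known and carries no test.

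Genes around the pathway were counted in lists of their own. These counts stand against 42.4% of all features higher and 42.2% lower under TMM, and 17.5% higher and 65.9% lower under plain totals, and a list with shares near these is not set apart from other features. Of the 6 triacylglycerol genes, all 6 rose, with DGA1, which makes the other storage lipid of the droplet, at 141 ± 9.52 CPM in stationary and 28.2 ± 2.59 CPM in exponential cultures (log2 fold change 2.32), and PAH1, the phosphatidate phosphatase, at a log2 fold change of 2.06. Under plain totals only 2 of these 6 rose and 1 fell. Of the 7 genes of fatty acid synthesis and desaturation, 6 fell, with the elongases ELO2 at -3.78 and ELO3 at -3.73 on the log2 scale. OLE1, the desaturase, rose by 0.79 under TMM, and was at -0.26 under plain totals. Of 10 genes of heme synthesis and heme helpers, 3 rose and 6 fell. HEM1, the first enzyme of heme synthesis, stood at 1.19 and DAP1, a heme-binding partner of Erg11, at 0.75 (-0.29 under plain totals), HEM13, an oxygen-using step, at -2.75 and HEM15, the ferrochelatase, at -2.63. Under plain totals 0 of these 10 rose and 8 fell.

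Of 6 sterol uptake genes, 3 rose and 0 fell, among them SUT1, a regulator of uptake, at 46.4 ± 13.3 CPM in stationary and 12.1 ± 1.02 CPM in exponential cultures, and PDR11, an uptake transporter, at 24.2 ± 0.612 CPM in stationary and 7.96 ± 0.805 CPM in exponential cultures. Under plain totals 3 of the 6 rose and 3 fell. Of 15 sterol transport genes, 8 rose and 6 fell (1 and 13 under plain totals), with LAM4 at a log2 fold change of 1.45 and OSH6 at -2.53. Of 3 sterol ester hydrolases, YEH2 rose by 0.28 (-0.76 under plain totals) and TGL1 fell by 2.66, and under plain totals all 3 fell. Of 5 genes of sterol acetylation and export, 4 fell, led by PRY2 at -3.49 and ATF2, the acetyltransferase, at -3.38. Of 9 genes of HMG-CoA reductase turnover, 2 rose and 4 fell (1 and 7 under plain totals), with HRD1, the ubiquitin ligase that degrades Hmg2, at 1.47 and NSG1, which stabilises Hmg2, at -1.86. Of 10 genes of other isoprenoid branches, 1 rose and 7 fell, with SRT1, a dehydrodolichyl diphosphate synthase, at 4.08 and RAM2, a prenyltransferase subunit, at -1.88.

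Of 5 other transcription regulators, 3 rose and 2 fell under TMM, 1 (ROX1) rose under plain totals, and 1 (MGA2) fell under protein-coding totals. ROX1, the repressor of hypoxic genes, had 192 ± 20.8 CPM in stationary cultures (SD, n = 3) and 33.7 ± 1.67 CPM in exponential cultures (SD, n = 4). SPT23, an activator of OLE1, rose by 1.34 on the log2 scale (0.29 and not called under plain totals). Its paralog MGA2 fell by 1.07. HAP1, the heme-responsive activator, fell by 0.52 (-0.09 and not called under protein-coding totals). Of 7 hypoxic isoform genes, 2 rose and 3 fell (2 and 4 under plain totals). The cell wall mannoprotein genes TIR1 and TIR2 stood at 2.19 and 2.28 and AAC3, an ADP/ATP carrier, at -3.32. The other falls, named after their values were seen, were ANB1, an eIF5A gene, at -2.85 and TIR3 at -2.40. The dividing cell markers, counted beside the sterol genes, summed to 768 to 831 CPM in stationary cultures and 5628 to 6091 CPM in exponential cultures, and all 5 fell. Their part in the sterol gene result was not tested.

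With 50 mM metformin in both phases, 26 of the 30 genes fell and 2 rose in stationary relative to exponential cultures, against 41.8% of features called lower and 40.8% called higher. At an unadjusted p under 0.05, 28 passed, against 83.6% of features. HMG2 (log2 fold change -0.13) and ECM22 (-0.01) were not called under TMM. The median of the 30 genes was -2.04, and that of all features -0.01. Plain totals gave 30 falls and 0 rises, against 70.4% of features lower and 13.5% higher, and protein-coding totals 24 falls and 4 rises, against 32.6% lower and 49.6% higher. The groups did not overlap for 29 of the 30 genes, 27 lower and 2 higher, against 40.6% of features lower and 39.1% higher. ERG6 had 5.74, 5.74 and 6.05 CPM in stationary libraries with metformin, against 151, 167, 174 and 154 CPM in exponential libraries with metformin (log2 fold change -4.79 ± 0.13 SE). MVD1 stood at -3.97, ERG4 at -4.26 and ERG26 at -3.35. The risers were again ARE1, at 83.8, 83.0 and 104 CPM in stationary and 58.8, 61.8, 53.8 and 56.7 CPM in exponential libraries, and UPC2, at 50.3, 59.1 and 58.3 CPM in stationary and 34.6, 35.1, 28.9 and 36.1 CPM in exponential libraries. Their log2 fold changes were 0.64 and 0.73 under TMM, and under plain totals -0.59 and -0.48.

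Metformin changed none of the 30 genes detectably in exponential cultures. At an adjusted p under 0.05 (edgeR), 0 of 30 were called, against 0.0984% of all features higher and 0% lower, and DESeq2 and limma-voom also called 0, against 0.131% and 0.0656% of features higher and 0% lower by either. At an unadjusted p under 0.05, 0 of 30 genes passed, against 1.77% of all features. The log2 fold changes, metformin over none, ran between -0.16 (ERG28) and 0.14 (ERG3), and their median was 0.03. All 30 of the 95% intervals lay within a 1.5-fold change in either direction, with bounds between -0.51 and 0.57. ERG3 had 198, 238, 204 and 218 CPM with metformin, against 193, 193, 188 and 205 CPM without it, and ERG11 had 306, 371, 329 and 342 CPM with metformin, against 338, 327, 342 and 373 CPM without it. The values of both genes overlapped between groups, as did those of the other 28, whereas 0.853% of all features were higher and 0.476% lower with no overlap.

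In the exponential libraries numbered 3, both regulators were low with and without metformin. UPC2 had 28.9 CPM with metformin and 27.8 CPM without it in these libraries, against 34.6 to 36.1 CPM and 32.9 to 34.6 CPM in the others. ECM22 had 29.1 CPM with metformin and 27.5 CPM without it, against 39.9 to 45.9 CPM and 39.0 to 44.2 CPM. The same libraries held the highest share of counts in the 30 genes of their groups, 0.563% with metformin and 0.543% without it.

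In stationary cultures metformin again gave no call among the 30 genes (0 of 30, edgeR), against 0.0492% of all features called higher and 0% lower. At an unadjusted p under 0.05, 3 of 30 passed, against 8.04% of all features. The median log2 fold change was 0.01, and 26 of the 30 intervals lay within a 1.5-fold change in either direction. The gene with the lowest p was UPC2, which had 50.3, 59.1 and 58.3 CPM with metformin, against 95.2, 78.7 and 66.6 CPM without it. Each library with metformin was below each library without it. The log2 fold change was -0.52 (95% interval -0.80 to -0.24), with an unadjusted p of 0.00140 and an adjusted p of 0.214 (edgeR), and an exact two-sided permutation test on CPM gave p = 0.1, the smallest that 3 against 3 libraries allow. DESeq2 called the gene (adjusted p = 0.0341), the only one of the 30, while limma-voom did not (adjusted p = 0.255). Over all features DESeq2 called 0.574% higher and 0.197% lower, and limma-voom 0.0984% higher and 0.0164% lower. Leaving out 1 library at a time gave log2 fold changes between -0.64 and -0.37 and adjusted p between 0.0645 and 0.457 (edgeR).

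ECM22 in stationary cultures had 38.8, 40.7 and 39.2 CPM with metformin, against 39.0, 38.2 and 34.5 CPM without it, and its groups overlapped. UPC2 over ECM22 per kilobase, free of scaling, was 1.16 to 1.33 with metformin and 1.72 to 2.17 without it in stationary libraries. In exponential libraries the ratio was 0.700 to 0.887 with metformin and 0.699 to 0.903 without it. The ranges overlapped in exponential phase and did not in stationary phase. This ratio holds UPC2, the gene with the lowest p, so it repeats that difference. In stationary libraries ARE1 over ARE2 was 1.41 to 1.77 with metformin and 1.28 to 1.76 without it. HMG1 over HMG2 was 0.813 to 1.01 with metformin and 0.859 to 1.03 without it. The ranges of these pairs overlapped, and other pairs were not examined. Of single features under TMM, 8.2% were higher and 2.95% lower with metformin in stationary cultures with no overlap.

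The other genes with an unadjusted p under 0.05 in stationary cultures were ERG10 and ERG9. ERG10 had 35.6, 35.8 and 35.2 CPM with metformin, against 30.8, 31.7 and 32.3 CPM without it, a log2 fold change of 0.17 (95% interval 0.01 to 0.33, adjusted p = 0.596, edgeR). ERG9 had 42.7, 47.0 and 50.2 CPM with metformin, against 39.3, 43.9 and 40.2 CPM without it, a log2 fold change of 0.18 (adjusted p = 0.598, edgeR). Under plain totals, and likewise under protein-coding totals, 1 of the 30 genes, UPC2, had an unadjusted p under 0.05 and 0 were called, against 0.0328% of features higher and 0.0492% lower with plain totals and 0.0492% higher and 0.0328% lower with protein-coding totals. The groups also did not overlap for ERG24, with 21.6, 22.1 and 22.2 CPM with metformin, against 21.3, 20.6 and 20.2 CPM without it. Counts of genes whose groups do not overlap were 2 higher and 1 lower among the 30, against 8.2% of all features higher and 2.95% lower. The 4 genes with an interval that reached past a 1.5-fold change were UPC2, ERG13, ERG25 and CYB5. ERG25 had 16.8, 22.4 and 24.5 CPM with metformin, against 33.0, 27.8 and 11.9 CPM without it, and its control libraries spread more widely than the groups differed.

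**Figure D5:**
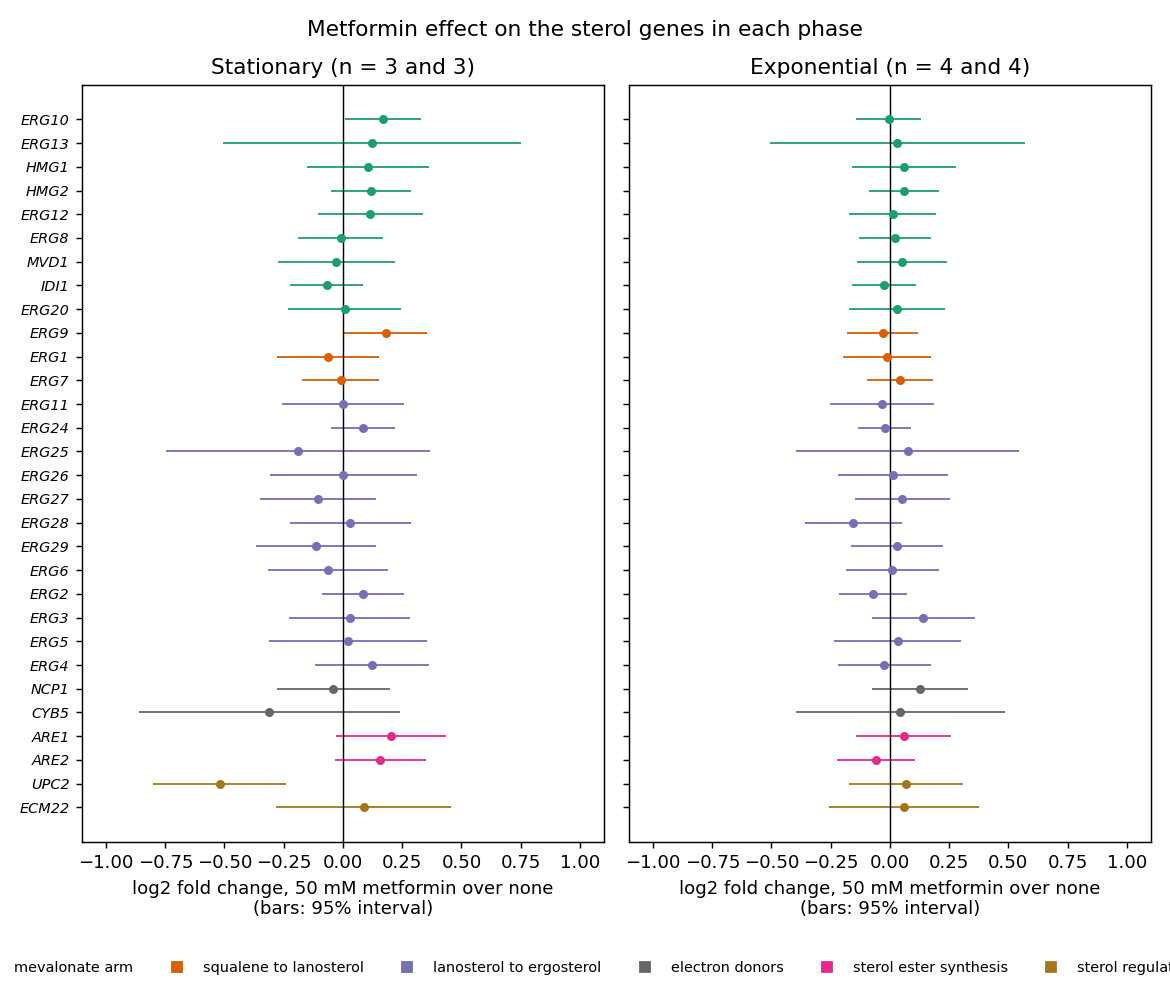
Log2 fold change of each gene, 50 mM metformin over none, with 95% intervals from the edgeR fit in stationary cultures (left, n = 3 in each group) and exponential cultures (right, n = 4 in each group), coloured by role. UPC2 in stationary cultures, at -0.52, lies furthest from 0, and the other points lie between -0.31 and 0.20.

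Whether metformin acted differently in the 2 phases was tested as an interaction, and 0 of the 30 genes were called (edgeR), against 0.0164% of all features higher and 0% lower. Plain and protein-coding totals also gave 0 of 30, against 0.0328% of features lower in each and 0% (plain) and 0.0164% (protein-coding) higher. DESeq2 also called 0 of 30, against 0.0984% of features higher and 0.0984% lower, and limma-voom 0 of 30, against 0.0164% higher and 0% lower. At an unadjusted p under 0.05, 1 of 30 passed, against 5.54% of all features. That gene was UPC2, with a difference of -0.59 on the log2 scale (95% interval -0.96 to -0.22, adjusted p = 0.519, edgeR). Its metformin effect was -0.52 in stationary cultures and 0.07 in exponential cultures. The other 29 differences ran between -0.35 (CYB5) and 0.22 (ARE2), with a median of -0.01 over the 30 genes. No gene of the surrounding lists was called for metformin in either phase or for the interaction.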

How the data were processed

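Total RNA of yeast cultures was sequenced as 14 directional, ribodepleted libraries, per the labels' protocols. The authors deposited raw read counts per feature in 1 table. STAR, SAMtools and HTSeq are named in the submitters' processing notes, while for versions, genome build and strand setting nothing is given in the sources used here. The 5 HTSeq summary rows were left out. All 6470 features matched R64 locus tags. Genes of the set, the gene lists and the tests were chosen with earlier results of these data known.

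Features were filtered with filterByExpr (minimum count 10, minimum total 15), scaled with TMM and tested with the edgeR 4.0.16 quasi-likelihood test in R 4.3.3. All 14 libraries entered 1 fit with group as the factor, and p-values were adjusted by Benjamini-Hochberg over the 6097 features tested, with a threshold of 0.05. Standard errors and 95% intervals were derived from that test. The pipeline was tested on simulated data. Alternatives were DESeq2 1.42.0, limma-voom (limma 3.58.1), RLE factors, plain totals, no filter, the compared groups alone, a replicate block, and leaving out each library. Protein-coding totals were added after the data were seen. All 30 genes of the set may be named. Of the other lists, the genes named are among the largest rises and falls that passed and averaged 10 CPM or more in any group.

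Depth was 43897221 to 59443572 gene counts per library. Replicates differed by more than sampling noise, with a chi-square per degree of freedom of at least 35.2. In stationary cultures each metformin library deviated from its group most like the control library of the same number (correlations 0.17, 0.43 and 0.50). The titles state no pairing, and the main fit and the permutation test used none. The replicate block, which tied the same title numbers across phases too, changed no call of the 30 genes for metformin in stationary cultures. Stationary libraries titled replicate 3 are named Ec5 and Em5 in the deposited counts, and the exponential ones Mc3 and Mm3. The block therefore tied libraries whose numbers differ there. Sequences and coordinates are from the R64 reference.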

Additional observations from a re-analysis of the deposited data

Results flagged for a closer look

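HMG1 was low in 1 exponential library with metformin, replicate 1, at 108 CPM, against 124 to 126 CPM in the other 3 libraries of that group. ARE2 was low in exponential replicate 4 with metformin, at 63.4 CPM, against 73.6 to 74.7 CPM in the other 3. Each lay far from its group by Dixon's criterion. The criterion was applied to 60 groups of 4 libraries, the 30 genes in both exponential groups, and chance marks about 1 in 20 such groups.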

How the results depend on the processing

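Scaling moved the phase results most. Without metformin, 0 of the 30 genes rose under plain totals and 4 under protein-coding totals, with medians of -3.09 and -1.61, and the median of all features was -1.02 and 0.45. With metformin these were 0 and 4 genes, medians of -3.23 and -1.69, and all-feature medians of -1.22 and 0.34. Single genes that changed sign without metformin were ARE1 (called lower at -0.54, plain totals), HMG2 (called higher at 0.25, protein-coding totals) and ECM22 (called higher at 0.40, protein-coding totals). With metformin they were ARE1 (-0.59) and UPC2 (-0.48) under plain totals, and HMG2 (0.22), ARE2 (0.085) and ECM22 (0.35) under protein-coding totals. ECM22, never called under TMM, also turned positive with metformin under RLE factors (0.014), DESeq2 (0.014) and limma-voom (0.017). Leaving out 1 library gave ECM22 values between -0.16 and 0.047 without metformin and between -0.12 and 0.081 with it, and a median of the 30 genes with metformin between -2.18 and -1.97. In stationary cultures the metformin medians were -0.12 for the 30 genes and -0.13 for all features under plain totals, and -0.064 for all features under protein-coding totals. For the interaction they were -0.17 and -0.16 under plain totals and -0.082 for all features under protein-coding totals. DESeq2 called 1 of the 30 genes lower with metformin in stationary cultures, UPC2, where it called 12 of 6097 features lower and 35 higher. Leaving out 1 library gave ERG25 values between -0.52 and 0.11 for metformin in stationary cultures and between -0.59 and 0.031 for the interaction, positive without stationary control replicate 1. Without SCR1 in the total, the 30 genes held 0.101% and 0.107% of gene counts in stationary cultures with and without metformin, and 0.563% and 0.548% in exponential cultures with and without it. With the replicate block ECM22 was at 0.030 without and 0.065 with metformin. Across phases without metformin 26 genes fell and 2 rose with the block, since HMG2 was lost (as it was with the compared groups alone, with 26 falls). No other count of called genes among the 30 changed with the block. At an unadjusted p under 0.05 (edgeR) the block gave 2 genes for metformin in stationary cultures, 2 for the interaction and 28 across phases without metformin. Libraries with the same title number did not deviate together across phases (correlations between -0.15 and 0.23). In exponential cultures the correlations between metformin and control libraries of the same number ran between -0.05 and 0.88. ARE2 with metformin was not called without stationary metformin replicate 2 (adjusted p = 0.0521, edgeR). The causes were not tested.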
